A study of Elaeis guineensis with 38 samples.

Results

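H3K4me3 and H3K27me3 were compared in the leaf of 5 oil palms (Elaeis guineensis) that bore normal fruit, namely palms 753, 758, 764, 767 and 768. The comparison used the 5 H3K4me3 and the 5 H3K27me3 peak lists of these palms, matched by palm number, which are 10 of the 19 immunoprecipitated libraries and 10 of the 38 samples of the series. The groups follow the labels, and no measured value assigned a sample to one. The labels describe the palms as clones of a single ortet, the mother palm, so they are separate plants of one origin and say nothing of the spread among unrelated palms. Leaf of frond 0 was used in every case, and no palm of the comparison carried a treatment or a named allele. Chromatin was sheared and immunoprecipitated (ChIP) with a mouse monoclonal antibody against either mark, and sequenced in pairs of reads. Each of the 10 ChIP libraries has an input library of its own, made from chromatin that was not immunoprecipitated. The lists of the mantled palms, whose fruit is abnormal, were not used here.

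H3K4me3 is trimethylation of lysine 4 of histone H3. In plants, as in animals, it is typical of the first nucleosomes downstream of the starts of transcribed genes, and it forms short, sharp domains there. H3K27me3 is trimethylation of lysine 27 of the same histone. It is set by Polycomb repressive complex 2, is associated with silent developmental genes, and in plants often extends over whole gene bodies. Nucleosomes or loci that carry both are known, and in a tissue of many cell types an overlap of peaks can also come from different cells. In bulk chromatin, fewer cells with a mark and less of the mark per cell cannot be told apart. The deposited lists name no genes, so neither the gene next to a peak nor markers of leaf tissue could be examined, and no gene, exon or promoter is given for the positions that follow. Positions are counted from 1 on the numbered scaffold pieces of the files.

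A first question was how deeply the libraries of each mark were sequenced, because the number and width of called peaks can move with depth. Values are given throughout in the order of palms 753, 758, 764, 767 and 768. The fragments kept for peak calling, a fragment being a pair of reads, numbered 3544422, 7883375, 1683525, 302016 and 1331454 in the H3K4me3 libraries. In the H3K27me3 libraries they numbered 336380, 903822, 2056297, 1998875 and 356982. The H3K4me3 library was the deeper one by 10.5-fold in palm 753, 8.72-fold in palm 758 and 3.73-fold in palm 768. In palms 764 and 767 the H3K27me3 library was the deeper one, with H3K4me3 at 0.819 and 0.151 of its depth. Over the palms the marks did not differ in depth beyond the spread between libraries (2.12-fold higher in H3K4me3, exact two-sided permutation test, p = 0.286, n = 5 and 5). The input libraries held 8150780 to 13325762 fragments.

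Several lists stood apart from the rest of their mark. To describe this, a set of regions was taken for each palm from the other 4 palms, with a peak in at least 3 lists of one mark and in at most 1 list of the other mark. At the H3K4me3 sets, the H3K4me3 lists of palms 753, 758 and 768 had a peak at 95.8%, 98.4% and 87.1% of regions. The H3K4me3 list of palm 767 had one at 34.9% and that of palm 764 at 9.44%. The H3K27me3 lists of palms 753, 758 and 764 had a peak at 4.17%, 3.19% and 8.47% of their palms' H3K4me3 sets, which held 192, 188 and 720 regions. The H3K27me3 list of palm 767 had one at 70.1% of its set of 921, and that of palm 768 at 44.9% of 379. By these shares, the 2 H3K27me3 lists were nearer to the H3K4me3 pattern of the other palms than the remaining 3 H3K27me3 lists were. The sets differ, however. Those of palms 753, 758 and 764 counted both of these lists in the limit of at most 1 H3K27me3 list. In palm 767 the H3K27me3 list covered more of the palm's set than the palm's own H3K4me3 list did. List size limits such shares, as the H3K4me3 lists of palms 764 and 767 held 504 and 743 peaks against 720 and 921 regions. Of the 504 peaks, 79.2%, 86.5%, 52.2% and 67.1% overlapped the H3K4me3 lists of palms 753, 758, 767 and 768. Of the 743 peaks, 81.2%, 84.3%, 35.0% and 75.5% overlapped those of palms 753, 758, 764 and 768.

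At the H3K27me3 sets, the H3K27me3 lists had a peak at 66.4%, 87.4%, 91.6%, 40.1% and 14.2% of regions. The H3K4me3 lists had one at 17.6%, 83.0%, 29.4%, 0.599% and 2.93%. The H3K4me3 list of palm 758, from the deepest library, thus also covered most of the regions that the other palms marked with H3K27me3. It was the longest list as well, with 3623 peaks, against 4631 regions merged from all 10 lists. A large share is therefore not particular to the H3K27me3 set, and the part of list length in it was not tested. Among the H3K27me3 lists, that of palm 768 covered the smallest share of its H3K27me3 set. What made these lists differ was not tested, and neither was whether libraries or antibodies were exchanged. The labels were used as deposited, so each mark named here is the mark on the label. The main overlap, width and region results are also given without the H3K27me3 lists of palms 767 and 768.

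**Figure D1:**
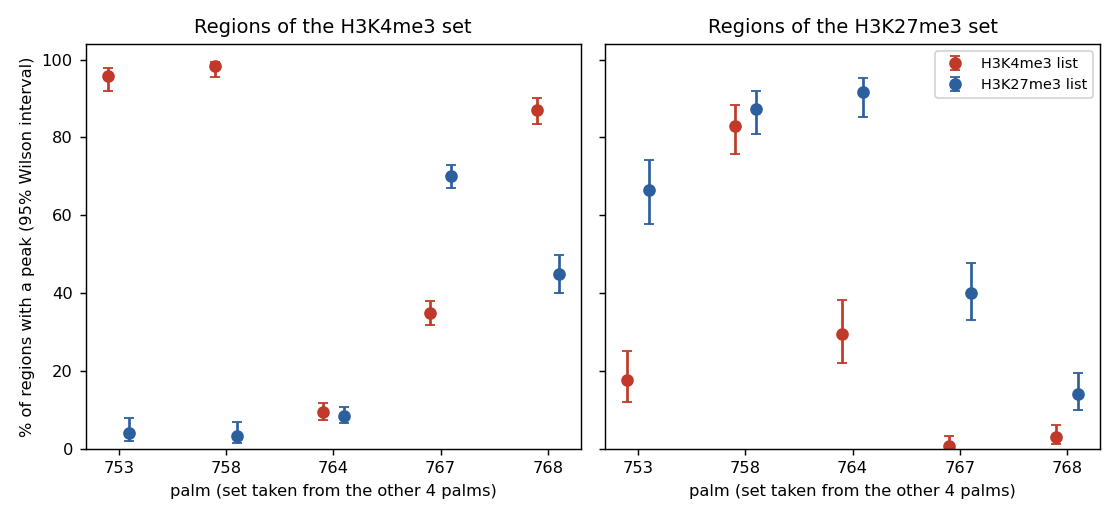
Percentage of regions with a peak in each palm's H3K4me3 list (red) and H3K27me3 list (blue), for regions chosen in the other 4 palms as H3K4me3 regions (left) or H3K27me3 regions (right). The vertical axis is the percentage of regions, and bars are 95% Wilson intervals, which cover counting error only. In palm 767 the H3K27me3 list lies above the H3K4me3 list at H3K4me3 regions (70.1% against 34.9%), and in palm 758 they lie close together at H3K27me3 regions (83.0% and 87.4%).

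The number of peaks did not separate the marks. H3K4me3 lists held 2235, 3623, 504, 743 and 1584 peaks, which is 1738 ± 1259 (SD, n = 5). H3K27me3 lists held 739, 707, 1227, 1436 and 727 peaks, which is 967 ± 341 (SD, n = 5). The 3 largest lists were H3K4me3 lists, but the smallest was one as well, and the groups overlapped. On the log2 scale H3K4me3 lists were larger by 0.57, or 1.48-fold (exact two-sided permutation test over all ways to divide the lists into 5 and 5, p = 0.317, adjusted p = 0.794 over 5 list measures by the Benjamini-Hochberg method). The larger list of a palm belonged to the deeper library in 5 of 5 palms. Per 1000000 fragments kept the direction turned, with a log2 difference of −0.51 (p = 0.460, exact permutation), and the part of depth in the number of peaks was not tested further.

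The length covered by the peaks of a list did not separate the marks either. H3K4me3 peaks covered 995, 1598, 179, 262 and 674 kb, and H3K27me3 peaks covered 349, 485, 1136, 1003 and 372 kb. The log2 difference was −0.10 (exact permutation test, p = 0.865, adjusted p = 0.944), and the deeper library covered more in 5 of 5 palms. Per 1000000 fragments kept it was −1.19, or 0.440-fold (exact permutation test, p = 0.0635). Within palms, H3K4me3 covered the longer stretch in palms 753, 758 and 768 and H3K27me3 in palms 764 and 767.

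**Figure D2:**
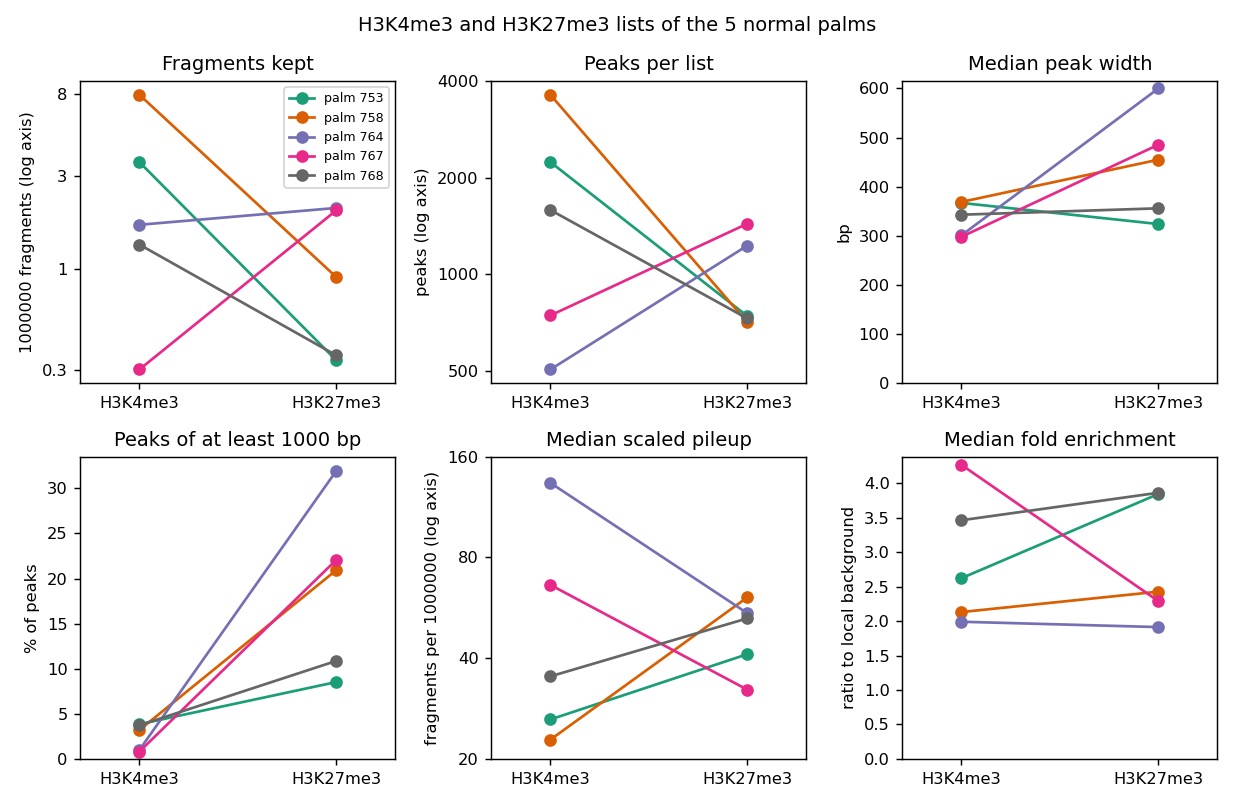
Values of each list by mark, with a line joining both lists of a palm: fragments kept (in units of 1000000, log axis), peaks per list (log axis), median peak width (bp), share of peaks of at least 1000 bp (%), median scaled pileup (fragments per 1000000, log axis) and median fold enrichment. Lines run both up and down between the marks in every panel except that of peaks of at least 1000 bp, where all 5 rise from H3K4me3 (0.808% to 3.85%) to H3K27me3 (8.53% to 31.9%).

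Peak width set the marks apart at its upper end. The median width of H3K4me3 peaks was 367, 369, 301, 298 and 343 bp, or 336 ± 34.5 bp (SD, n = 5). The median width of H3K27me3 peaks was 324, 455, 600, 485.5 and 356 bp, or 444 ± 110 bp (SD, n = 5). H3K4me3 medians were thus 0.771 times as wide, a difference that did not pass the test (log2 difference −0.38, exact permutation test, p = 0.0714, adjusted p = 0.357), and the H3K27me3 median was the larger one in 4 of 5 palms. The exception was palm 753, whose H3K27me3 library was the second shallowest of the 10.

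The widest peaks differed more. The 90th percentile of width was 751, 730, 549, 549 and 723 bp in the H3K4me3 lists, against 941, 1410, 2004, 1468 and 1038 bp in the H3K27me3 lists, so that no H3K4me3 list reached the lowest H3K27me3 list. This measure and the share of wide peaks were added after the lists had been seen. The adjustment over 7 list measures does not cover that choice. The H3K4me3 value was 0.494 times the H3K27me3 value (exact permutation test, p = 0.00794, the smallest p that 5 against 5 lists allow, adjusted p = 0.0278 over 7 list measures). Peaks of at least 1000 bp made up 3.85%, 3.20%, 0.992%, 0.808% and 3.72% of the H3K4me3 lists. They made up 8.53%, 20.9%, 31.9%, 22.1% and 10.9% of the H3K27me3 lists, a mean difference of 16.4 percentage points over 5 of 5 palms (2.51% ± 1.496 against 18.9% ± 9.44, SD, n = 5, exact permutation test, p = 0.00794). With the palm as a pair, an exact sign-flip test gave p = 0.0625 for both measures, which is the smallest p that 5 palms allow, so the paired test could not pass.

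In bases, wide peaks held 7.42% ± 4.06 of the H3K4me3 length and 43.6% ± 16.1 of the H3K27me3 length (SD, n = 5). The widest H3K4me3 peak of each list measured 2173, 2230, 1297, 1514 and 2150 bp. The widest H3K27me3 peak measured 3054, 3915, 7348, 4192 and 2982 bp, and the one of 7348 bp lay at 6610 to 13957 of piece p5.00_sc00729_p0001 in palm 764. Without the H3K27me3 lists of palms 767 and 768 the 90th percentile differed by −1.08 on the log2 scale (exact permutation test, p = 0.0179, the smallest that 5 lists against 3 allow). The caller ran in narrow mode for H3K4me3 and in broad mode for H3K27me3, and the broad mode joins nearby stretches of enrichment, so mark and calling mode cannot be told apart for any measure of width. When peaks of the same list within 500 bp of each other were joined, the 90th percentile differed by −0.71 on the log2 scale (exact permutation test, p = 0.0397). This joining left the number of peaks in every H3K27me3 list unchanged and altered only the H3K4me3 lists. It therefore cannot separate mark from calling mode either.

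**Figure D3:**
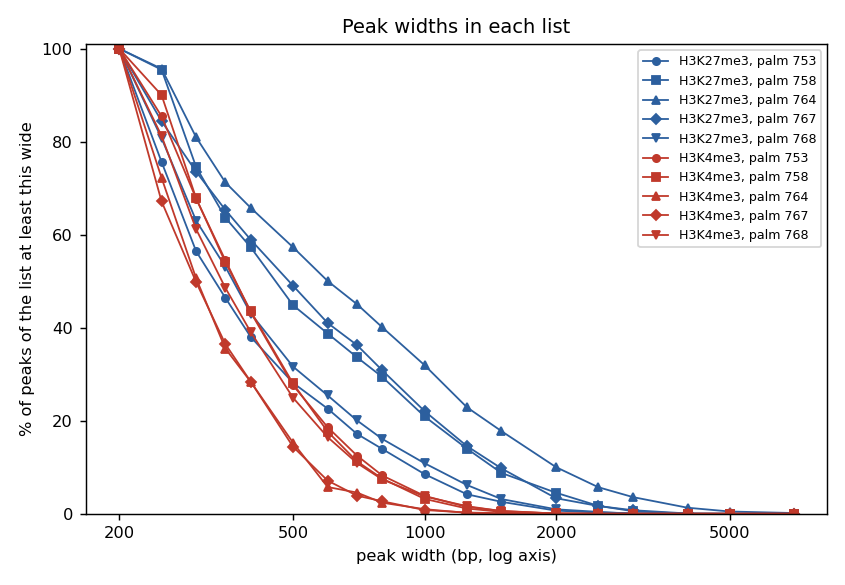
Share of the peaks of each list (vertical axis, %) that are at least as wide as the value on the horizontal axis (bp, log axis), for 5 H3K4me3 lists (red) and 5 H3K27me3 lists (blue), with a marker for each palm. The curves of the marks run together at small widths and part toward 1000 bp, where the red curves lie at 0.808% to 3.85% and the blue ones at 8.53% to 31.9%.

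Wide regions recurred between palms. A wide H3K27me3 peak was present in all 5 H3K27me3 lists at 19 regions, and a wide H3K4me3 peak in all 5 H3K4me3 lists at 2 regions. Of the 19, 17 had an H3K4me3 peak in 4 or 5 lists, and 0 had no H3K4me3 peak in any list. Over all 4631 merged regions, H3K4me3 was in 4 or 5 lists at 588 (12.7%). Among the 138 regions of any width with H3K27me3 in all 5 lists, however, 72 had H3K4me3 in 5 lists, 21 in 4 and 0 in none. When the H3K27me3 lists of palms 767 and 768 were not counted, 44 regions were wide in the remaining 3, of which 21 had an H3K4me3 peak in 4 or 5 lists and 5 had none. Of all 363 regions with H3K27me3 in these 3 lists, the same counts were 116 and 53. One of the other 2 among the 19 lay at 17873 to 19971 of piece p5.00_sc00128_p0072. There the H3K27me3 peak measured 2063, 2098, 2099, 1652 and 1550 bp, with a fold enrichment of 7.25, 7.93, 5.68, 3.48 and 3.63, and H3K4me3 was called in 2 lists. A counterpart among the H3K4me3 regions lay at 9814 to 11397 of piece p5.00_sc01581_p0001. Its H3K4me3 peak measured 1525, 1518, 1297, 1514 and 1584 bp, with a fold enrichment of 6.79, 4.15, 2.77, 11.5 and 11.6, and H3K27me3 was called over it in 4 lists. These regions were named after their values were seen.

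The height of the peaks did not separate the marks. Scaled pileup is the number of stacked fragments at a peak per 1000000 fragments kept. Its median over the peaks of a list was 26.2, 22.8, 134, 66.2 and 35.3 for H3K4me3 and 41.1, 60.8, 54.5, 32.2 and 52.6 for H3K27me3. The highest list and the 2 lowest lists were all H3K4me3, and the H3K27me3 lists lay between them (log2 difference −0.06, exact permutation test, p = 0.921, adjusted p = 0.944). Fold enrichment is the caller's ratio of the pileup to the local background. Its median was 2.62, 2.13, 1.99, 4.27 and 3.46 for H3K4me3 and 3.84, 2.43, 1.91, 2.29 and 3.86 for H3K27me3 (log2 difference 0.01, exact permutation test, p = 0.944, adjusted p = 0.944). In 5 of 5 palms the deeper library of the palm had the lower median on both measures, whichever mark it was. Both values refer to the summit in H3K4me3 lists but to a mean over the peak in H3K27me3 lists, so mark and kind of summary cannot be told apart in these medians.

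Many peaks of both marks lay at sites of high local background. For each peak the background was worked back from its pileup and its fold enrichment, and it is given here relative to the mean coverage of a genome of 221 Mb, the size that the authors set for the caller ("the average" from here on). Its median over peaks was 8.92, 9.86, 72.5, 10.2 and 8.92 for H3K4me3 and 7.13, 22.2, 27.7, 14.1 and 11.4 for H3K27me3. Peaks over 10 times the average made up 46.7% to 86.5% of the H3K4me3 lists and 44.1% to 70.4% of the H3K27me3 lists. The H3K4me3 list of palm 764 stood at the top on both values, and it was also the smallest list and the one with the highest median scaled pileup.

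Within a palm, a part of the peaks of each mark overlapped the other mark. H3K4me3 peaks that shared at least 1 bp with an H3K27me3 peak of the same palm made up 11.1%, 15.5%, 64.1%, 73.8% and 33.0% of the H3K4me3 lists (39.5% ± 28.3, SD, n = 5). H3K27me3 peaks that met an H3K4me3 peak made up 31.1%, 69.2%, 23.0%, 34.5% and 64.8% of the H3K27me3 lists (44.5% ± 21.0, SD, n = 5). Both shares count nearly the same overlaps, at 248, 562, 323, 548 and 523 H3K4me3 peaks and 230, 489, 282, 496 and 471 H3K27me3 peaks. The larger share fell to the shorter list of the palm in 5 of 5 palms, which follows from the list lengths. The Jaccard index, which sets the length common to both lists against their union, was 0.0702, 0.118, 0.0980, 0.179 and 0.254 (0.144 ± 0.0735, SD, n = 5). Without palms 767 and 768 the means were 30.2% of H3K4me3 peaks, 41.1% of H3K27me3 peaks and a Jaccard index of 0.0953. Among peaks at no more than 10 times the average background they fell to 17.8%, 25.9% and 0.0663 over the 5 palms, and among peaks of fold enrichment 3 or more to 21.2%, 27.9% and 0.106. The shared length was 88.2, 220, 117, 192 and 212 kb.

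Most overlaps took in the summit of the H3K4me3 peak. The summit of the H3K4me3 peak lay inside the H3K27me3 peak for 95.6% to 99.7% of the H3K4me3 peaks that overlapped one. Of these, 27.4%, 38.8%, 75.2%, 50.9% and 22.8% lay wholly inside the H3K27me3 peak. The reverse, an H3K27me3 peak wholly inside an H3K4me3 peak, held for 30.9%, 22.9%, 4.26%, 11.9% and 42.5% of the overlapping H3K27me3 peaks. Nesting of H3K4me3 in H3K27me3 was thus most frequent in palms 764 and 767, the 2 palms in which H3K27me3 was the deeper library. Most H3K4me3 peaks without an overlap had no H3K27me3 peak anywhere on their scaffold piece, as for 1758 of 1987 in palm 753 and 2751 of 3061 in palm 758.

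Peaks that overlapped the other mark were taller, wider and on higher background than peaks that did not. The median scaled pileup of H3K4me3 peaks was 112 ± 58.3 with an H3K27me3 peak and 29.8 ± 14.2 without one (SD, n = 5), higher in 5 of 5 palms. That of H3K27me3 peaks was 91.5 ± 39.5 with an H3K4me3 peak and 36.5 ± 15.05 without one (SD, n = 5), again higher in 5 of 5 palms. The median fold enrichment did not move with it. It was 2.71 ± 1.10 against 3.02 ± 1.05 for H3K4me3 and 2.61 ± 0.692 against 2.98 ± 1.06 for H3K27me3, and higher with the other mark in 1 of 5 palms for either mark. The local background did, with medians of 45.6 ± 39.2 against 10.0 ± 8.35 times the average for H3K4me3 and 35.9 ± 27.3 against 12.3 ± 9.81 for H3K27me3, higher in 5 and in 4 of 5 palms. The part of the background in the overlap was not tested beyond the filter on background given below.

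By the share of the shorter list, lists of both marks from one palm overlapped more than lists from different palms. This did not hold under every form of the comparison. As a percentage of the peaks of the shorter list, the overlap was 60.6% for the 5 same-palm pairs and 49.96% for the 20 pairs of different palms and marks. The difference of 10.6 points had p = 0.00833 in a one-sided exact permutation test over all 120 pairings, the smallest p these allow. The Jaccard index went the other way, at 0.144 for same-palm and 0.166 for different-palm pairs. The share of the shorter list can rise with the length of the longer one. Within palms long lists met short ones, with r = −0.885 between the marks for log2 peak number. Palm and list length therefore cannot be told apart in the test over full lists. With the 504 strongest peaks of each list the difference in that share was 1.29 points (one-sided exact permutation test, p = 0.467). With peaks at no more than 10 times the average background it was 1.31 points (p = 0.408, exact permutation), and without palms 767 and 768 it was 6.87 points (exact permutation, p = 0.167, the smallest that 3 palms allow).

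As a share of the shorter list, H3K4me3 lists overlapped each other more than they overlapped H3K27me3 lists, while H3K27me3 lists did not. By the mean Jaccard index both did, at 0.253 for H3K4me3 pairs and 0.203 for H3K27me3 pairs. Pairs of different marks had 0.166 across palms and 0.144 within palms. Over both marks together, the share of the shorter list was 63.9% for same-mark pairs and 52.1% for pairs of different marks, a difference of 11.9 points (one-sided exact permutation test over all ways to divide the lists into 5 and 5, p = 0.0397). The 10 pairs of H3K4me3 lists overlapped by 78.2% ± 10.99 and the 10 pairs of H3K27me3 lists by 49.7% ± 16.6 (SD over pairs, which share lists), so the mean of H3K27me3 pairs lay below that of pairs of different marks and the difference came from the H3K4me3 pairs. With the palm as a pair the exact test gave p = 0.0625, the smallest it can give. The difference lost its call with each palm left out (p = 0.0571 to 0.200, exact permutation), and was lowest, at 6.29 points, without palm 753. It also lost it among peaks of fold enrichment 3 or more (11.2 points, p = 0.0556) and among peaks of lower background (9.98 points, p = 0.0714), both by exact permutation.

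The H3K27me3 lists of palms 767 and 768 shared more with H3K4me3 lists than the other H3K27me3 lists did. They overlapped the H3K4me3 lists of other palms by 69.8% on average over 8 pairs, and the H3K27me3 lists of palms 753, 758 and 764 by 38.7% over 6 pairs. The H3K27me3 lists of palms 753, 758 and 764 overlapped each other by 65.6% over 3 pairs and the H3K4me3 lists of other palms by 36.7% over 12 pairs. Without the 2 lists of palms 767 and 768, same-mark overlap exceeded different-mark overlap by 35.0 points. That value is given with no test, because the lists were left out for their overlap. Without both palms altogether the difference was 24.3 points (exact permutation, p = 0.100, the smallest that 3 against 3 lists allow).

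**Figure D4:**
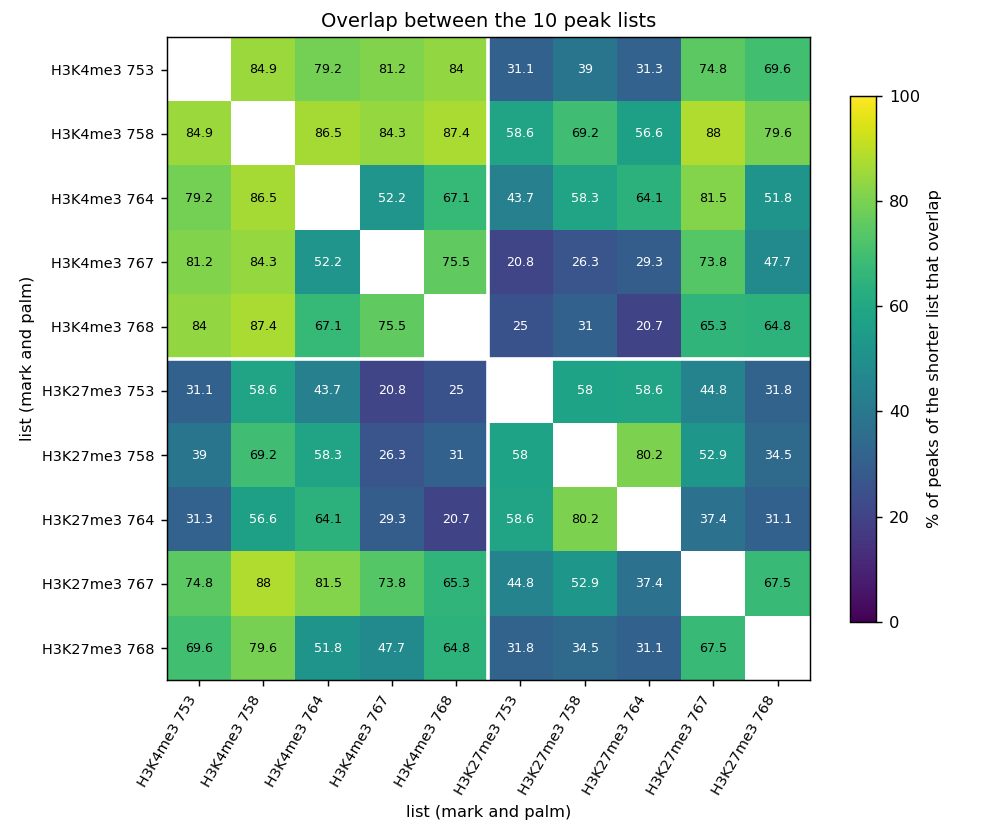
Overlap between the 10 peak lists, with H3K4me3 lists first and H3K27me3 lists after them on both axes and the colour giving the percentage of the shorter list's peaks that overlap the other list. The H3K4me3 block has a mean of 78.2%, the H3K27me3 block 49.7%, and the H3K27me3 lists of palms 767 and 768 are brighter against H3K4me3 lists than against the other H3K27me3 lists.

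Regions were then followed across lists. Merging all overlapping peaks of the 10 lists gave 4631 regions on 3030 scaffold pieces. H3K4me3 alone was called at 1972 regions (42.6%), H3K27me3 alone at 847 (18.3%) and both marks, in the same or in different palms, at 1812 (39.1%). A single list accounted for 1966 regions (42.5%), and 72 regions had a peak in all 10 lists. The count of regions with a peak in 5 lists of one mark and 0 of the other was 0 in both directions.

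No region passed Fisher's exact test between marks after Benjamini-Hochberg adjustment (0 of 4631, 0%; the smallest adjusted p was 1). The design made such a call hard, since a region present in 5 lists against 0 has an exact p of 0.00794 and 736 regions of that kind would have been needed. At an unadjusted p under 0.05, 47 regions (1.01%) had a peak in more H3K4me3 lists and 28 regions (0.605%) in more H3K27me3 lists. These counts moved with every palm left out. Without palm 753, 758, 764, 767 or 768 they were 0, 0, 25, 43 and 0 toward H3K4me3, and 2, 12, 1, 0 and 14 toward H3K27me3, where with 4 palms only a region in 4 lists against 0 can pass. Without the H3K27me3 lists of palms 767 and 768, 60 of 4687 regions had a peak in all 5 H3K4me3 lists and in none of the 3 H3K27me3 lists. The reverse held at 53. These counts are a description only, because the 2 lists were left out for their overlap with H3K4me3 lists. A peak in all or none of 3 lists is also a looser requirement than in all or none of 5.

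A peak in at least 4 lists of one mark was the rule used to describe recurrent regions. H3K4me3 was recurrent at 588 regions, of which 180 had H3K27me3 in at most 1 list and 151 had it in 4 or 5. Of these 180, 26 had no H3K27me3 peak and 154 had 1, which in 136 cases was that of palm 767. H3K27me3 was recurrent at 311 regions, of which 76 had H3K4me3 in at most 1 list. Of these 76, 16 had no H3K4me3 peak and 60 had 1, which in 59 cases was that of palm 758. Single lists thus held most of the exceptions on both sides. Over all 4631 regions, 1972 (42.6%) had no H3K27me3 peak and 311 (6.72%) had one in 4 or 5 lists. H3K4me3 was absent at 847 of all regions (18.3%) and in 4 or 5 lists at 588 (12.7%). When the H3K27me3 lists of palms 767 and 768 were not counted, 324 of the 588 regions had no H3K27me3 peak and 116 had one in all 3 remaining lists. H3K27me3 was then present in all 3 lists at 363 regions, of which 160 had H3K4me3 in at most 1 list and 53 in none.

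**Figure D5:**
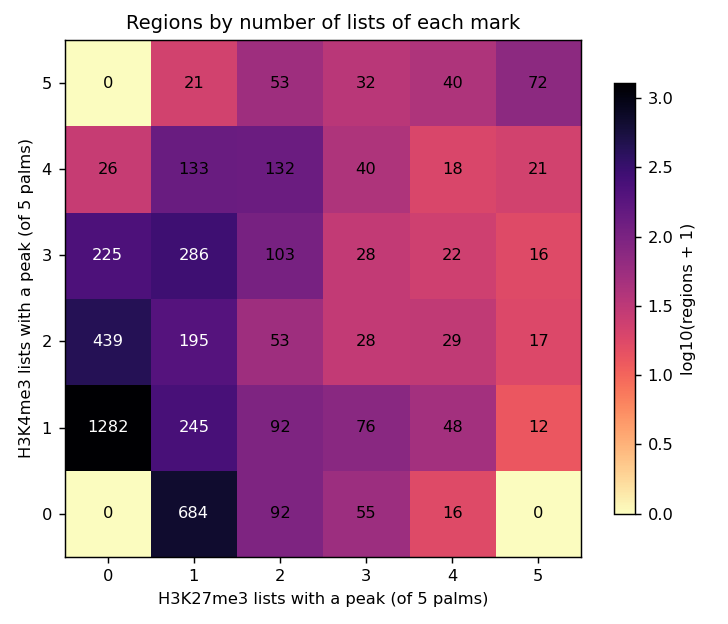
Number of regions by how many H3K27me3 lists (horizontal axis, of 5) and how many H3K4me3 lists (vertical axis, of 5) have a peak there, with the colour on a log10(regions + 1) scale and the count printed in each cell. The corner cells for 5 lists of one mark and none of the other hold 0 regions, and the cell for all lists of both marks holds 72.

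The 180 H3K4me3-leaning, 76 H3K27me3-leaning and 151 doubly recurrent regions differed in background, and the values are a description, since the lists themselves chose the regions. The median local background was 13.8 times the average at the H3K4me3-leaning regions and 15.7 times at the H3K27me3-leaning regions. At the doubly recurrent regions it was 135 times, and 87.4% of them lay above 10 times. Their median scaled pileup was 298 in H3K4me3 and 247 in H3K27me3 libraries, against 45.5 for H3K4me3 at its leaning regions and 49.0 for H3K27me3 at its own. Median fold enrichment ran the other way, at 2.16 for H3K4me3 and 1.99 for H3K27me3 in doubly recurrent regions, against 3.17 and 2.92 in the leaning regions of each mark.

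The region with the largest difference toward H3K4me3, by the ranking given with the methods, lay at 7159 to 7449 of piece p5.00_sc00004_p0102. Its H3K4me3 fold enrichment was 2.84, 5.69, 9.31 and 5.29 in palms 753, 758, 767 and 768, with no peak in palm 764 and no H3K27me3 peak in any palm. The next lay at 306 to 635 of piece p5.00_sc00001_p0630, with 3.46, 2.39, 5.68 and 5.46 in the same 4 palms and again no H3K27me3 peak. At 3462 to 4257 of piece p5.00_sc00044_p0008 the H3K4me3 fold enrichment was 5.89, 2.73, 4.78 and 3.98 in palms 753, 758, 764 and 768, with no peak in palm 767. Among the 10 regions named in this direction, 8 had 4 H3K4me3 lists and no H3K27me3 list, and 2 had 5 H3K4me3 lists and 1 H3K27me3 list, that of palm 767. All 10 had an exact p of 0.0476 before adjustment, the smallest among the 4631 regions.

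Toward H3K27me3, the leading region lay at 298 to 833 of piece p5.00_sc00075_p0114. Its H3K27me3 fold enrichment was 8.55, 8.68, 7.20, 3.997 and 4.44, and the lone H3K4me3 peak, of palm 758, had 3.39. The second lay at 11379 to 11792 of piece p5.00_sc00009_p0175, with 7.59, 6.77, 7.26, 3.55 and 5.48 for H3K27me3 and 2.31 for the H3K4me3 peak of palm 758. The third, at 6 to 684 of piece p5.00_sc00086_p0048, had 7.54, 6.47, 6.44 and 3.28 in palms 753, 758, 764 and 767 and no H3K4me3 peak. In each of these 3 regions the H3K27me3 values of palms 753, 758 and 764 lay above those of palms 767 and 768, where these had a peak. This order held at 7 of the 10 regions named in this direction, and at the other 3 the value of palm 764 lay below that of palm 768. Of these 10 regions, 8 had 5 H3K27me3 lists and the H3K4me3 list of palm 758, and 2 had 4 H3K27me3 lists and no H3K4me3 list.

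Among the 72 regions with a peak in all 10 lists, the one with the highest median fold enrichment lay at 489 to 808 of piece p5.00_sc00512_p0005. It had 4.52, 3.06, 4.61, 14.1 and 5.19 for H3K4me3 and 17.1, 10.0, 5.00, 5.40 and 9.46 for H3K27me3. At 3860 to 4965 of piece p5.00_sc00287_p0005 the values were 5.13, 5.03, 3.41, 9.71 and 3.52 for H3K4me3 and 6.33, 9.57, 5.35, 4.03 and 4.23 for H3K27me3. At 8367 to 8646 of piece p5.00_sc00030_p0025 they were 4.60, 3.19, 4.02, 18.0 and 5.66 for H3K4me3 and 13.1, 4.85, 2.16, 3.89 and 18.7 for H3K27me3. In all 3, H3K4me3 was highest in palm 767, whose H3K4me3 library is the shallowest of the 10. The H3K27me3 values had no such common order, with the highest in palm 753, in palm 758 and in palm 768. Among peaks at no more than 10 times the average background, the third of these regions had a peak in 0 lists. The same held for those ranked 8, 9 and 10 among the 10 named, and the rest kept a peak in 7 to 10 lists.

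At regions where a palm had both marks, the values of their peaks could be set side by side, although the H3K4me3 pileup is taken at a summit, the H3K27me3 pileup is a mean over the peak, and the peaks differ in extent (medians of 313 and 754 bp in palm 764). There were 248, 502, 284, 495 and 468 such regions. The median log2 ratio of scaled pileup, H3K4me3 over H3K27me3, was −0.13, 0.03, 0.44, 0.57 and −0.23, a mean of 0.14 ± 0.35 (SD, n = 5, exact two-sided sign-flip test, p = 0.438). The H3K4me3 pileup was the higher value at 92.3% of the shared regions in palm 764 and 89.3% in palm 767, and at 32.7% to 52.8% in the other palms. The median log2 ratio of width was 0.09, −0.13, −0.86, −0.51 and 0.06, a mean of −0.27 ± 0.41 (SD, n = 5, exact sign-flip test, p = 0.312). The log2 ratio of fold enrichment was −0.34, −0.40, 0.08, 0.84 and 0.22, a mean of 0.08 ± 0.50 (SD, n = 5, exact sign-flip test, p = 0.812), so that palm 768 stood above palm 764 and had the opposite sign of its pileup ratio. For pileup and width, palms 764 and 767 had the highest ratios of pileup and the lowest ratios of width, and they were the palms whose H3K4me3 library was the shallower one.

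Across the shared regions of a palm, the log2 scaled pileups of both marks ran together, with Pearson's r of 0.956, 0.963, 0.958, 0.905 and 0.973. For the log2 fold enrichment, in which the local background is divided out, r was 0.528, 0.622, 0.582, 0.791 and 0.733. These correlations are across regions of 1 palm, which are not independent replicates, and both marks share the local background of a region and, at pieces of high background, its level. They are given as a description with no test.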

How the data were processed

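Peaks of H3K4me3 and H3K27me3 ChIP-seq were compared in leaf of 5 normal palms, which were the replicates. The peak caller was MACS2 2.1.1.20160309, and Bowtie2 2.2.5, SAMtools 1.9 and FastQC 0.11.3 were also used, per the submitters' processing notes. The authors ran the caller once per ChIP library with the matching input as control, in paired-end mode, with no more than 1 fragment at a position and a q cutoff of 0.05, per the file headers. H3K4me3 was called in narrow and H3K27me3 in broad mode, per the file headers. The authors deposited a pileup (a coverage signal), a fold enrichment (a ratio over local background) and p and q columns as −log10 values. Peak positions and lengths are deposited in bp. Apart from the names of the scaffold pieces, the genome build is not given in the sources used here. The gene table at hand is of another assembly, so genes and sequences were not used here.

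Each list was summarised with Python 3.11.15, pandas 2.3.3, numpy 2.4.6 and scipy 1.17.1, and plots were drawn with matplotlib 3.10.9. Pileup was scaled to 1000000 fragments kept, and the fragments kept are the depth per list given in the report. Local background was the pileup plus the caller's pseudocount of 1, divided by the fold enrichment, with the pseudocount then subtracted. Marks were compared by exact permutation of log2 values over lists, with the 5 planned list measures adjusted together. Overlap needed at least 1 bp, and each region was tested by Fisher's exact test, with p adjusted by Benjamini-Hochberg over all regions. The permutation and region tests were checked on simulated data. Intervals on shares of peaks or regions cover counting error only.

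The alternatives were stricter limits on −log10 q (5), fold enrichment (3) and local background (10 times the average), joining across 500 bp, an overlap of 50% of the shorter peak, equal numbers of peaks, other scalings, palms left out and the palm as a pair. The labels pair the libraries, since both of a palm carry its number. The deviations of same-palm lists from their mark's mean correlated at r = −0.885 for log2 peak number, −0.725 for median width, −0.857 for covered length, −0.153 for scaled pileup and 0.317 for fold enrichment.

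Named regions are the 10 with the largest surplus of H3K4me3 lists, the 10 with the largest surplus of H3K27me3 lists and the 10 with a peak in most lists, with ties ordered by median fold enrichment. A region's fold enrichment in a list is that of its strongest peak. The samples, measures and region rules were chosen with earlier results of these data known, and leaving out the H3K27me3 lists of palms 767 and 768 was added after the lists had been compared.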

Additional observations from a re-analysis of the deposited data

Results flagged for a closer look

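In a Dixon test of single extreme values, which chance meets in about 1 in 20 groups, 2 of 29 groups of 5 lists held a value far from the others, and both were values of the H3K4me3 list of palm 764. Its median local background was 72.5 times the average, against 8.92 to 10.2 times in the other 4 H3K4me3 lists. Peaks above 10 times the average made up 86.5% of it, against 46.7% to 50.6% in the other 4.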

How the results depend on the processing

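Among the recomputed values for the comparisons, 18 reversed, 18 lost their call and 14 moved by more than the spread between palms or, as counts, by over 1.5 times. The other 145 kept their direction and side of the threshold, stayed within 1.5 times as counts, or moved by less than 1 SD between palms where no test applies. The causes were not tested. All differences are H3K4me3 minus H3K27me3, as log2 values unless in points. Scaling by depth reversed peak number (−0.51) and moved covered length to −1.19. Covered length reversed with −log10 q limited to 5 or more (0.43), fold enrichment to 3 or more (0.028) or background to 10 times the average or less (0.082), and without palms 767 and 768 (0.19), and ran from −0.56 to 0.54 with 1 palm left out. Median scaled pileup reversed with the limits on fold enrichment (0.30) and background (0.054), with the 504 strongest peaks of each list (0.41, exact permutation p = 0.0317, adjusted p = 0.159) and unscaled (1.02), and ran from −0.40 to 0.28. Median fold enrichment reversed with the limits on fold enrichment (−0.040) and background (−0.12) and without palms 767 and 768 (−0.23), and ran from −0.21 to 0.15. The paired fit (replicate block by palm) kept the values of the 90th percentile of width (−1.02), the wide share (−16.4 points) and same-mark overlap (11.9 points), but its exact test cannot go below p = 0.0625 with 5 palms, and changed no other call. Without palms 767 and 768 the width measures were −1.05 and −17.8 points, and 3 against 3 lists cannot pass. With 1 palm left out they ran from −1.19 to −0.80 and from −19.3 to −12.7 points. Same-mark overlap missed the threshold with the limit on −log10 q (11.3 points), with the limits on fold enrichment (11.2) and background (9.98), without palms 767 and 768 (24.3) and with any 1 palm left out (6.29 to 15.6). Same-palm overlap missed it with the limits on fold enrichment (1.92) and background (1.31), with equal numbers of peaks (1.29) and without palms 767 and 768 (6.87). Within palms, the limit on background took the mean Jaccard index to 0.0663, the share of H3K4me3 peaks with H3K27me3 from 39.5% to 17.8% and the reverse share from 44.5% to 25.9%. The limit on fold enrichment took these shares to 21.2% and 27.9%. Regions with an unadjusted p under 0.05 toward H3K4me3 numbered 4 and 14 with the limits on fold enrichment and background and 0 to 43 with 1 palm left out. Toward H3K27me3 they numbered 10 at the limit on −log10 q, 0 to 14 with 1 palm left out and 53 without the H3K27me3 lists of palms 767 and 768. The last count is a description only, because those lists were left out for their overlap with H3K4me3 lists. No adjusted region call was made under any of these alternatives. Regions were not tested without palms 767 and 768, since 3 against 3 lists cannot pass. Depth ranged from 302016 to 7883375 fragments, and the part of depth in missing peaks was not tested.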

Other observations

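The peaks of highest fold enrichment recurred between some lists, once across marks and otherwise within a mark, a pattern noticed after the lists were read. The peak of highest fold enrichment in the H3K4me3 list of palm 767 (18.0) and in the H3K27me3 list of palm 768 (18.7) was the same region, at 8367 to 8646 of piece p5.00_sc00030_p0025. Its local background was 24.8 to 39.3 times the average over the 10 lists. In the H3K27me3 lists of palms 758 and 764 the highest value, 12.8 and 10.3, belonged to a peak near the start of piece p5.00_sc00019_p0203, beginning at positions 3 and 7. In the H3K4me3 lists of palms 753 and 768 it belonged to piece p5.00_sc00167_p0040, at 8.16 and 13.7.

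Scaffold pieces carried few peaks each. The mean was 1.22 to 1.56 peaks per piece that had any in the H3K4me3 lists, and 66.3% to 84.1% of those pieces had a single peak. Of the 3030 pieces with a peak in any list, 1465 had both marks in the pooled lists.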
